A study of Mus musculus with 28 samples.

Results

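The nucleosome remodelling and deacetylase complex, NuRD, joins an ATP-driven remodeller to histone deacetylases, and chromatin immunoprecipitation of its subunits in mouse fibroblasts placed 4 or more of them on 1579 of 73889 regions that carried histone H3.3. These 1579 regions, called the NuRD-rich regions here, were 2.14% of the H3.3 regions and 4.79% of their bases. They were chosen from the deposited peak coverage table, which lists 82893 regions and gives, for each library, the fraction of the region covered by peaks. A region was taken when at least 4 of the 6 subunit libraries (CHD4, HDAC1, HDAC2, MBD2/3, MTA1 and RBBP4) had a coverage above 0 and at least 1 of the 2 HA-H3.3 libraries did too. A further 142 regions had 4 or more subunits without an H3.3 peak and are not members.

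All libraries came from NIH/3T3 Tet-On 3G cells, a mouse embryonic fibroblast line. The 6 subunits and the marks H3K4me3, H3K27ac and H3K9ac were each precipitated once from cells that carried no construct, genotype wild type. HA-H3.3 was precipitated in 2 replicates from cells transduced with an HA/FLAG-H3.3 construct, treated with doxycycline and with aphidicolin, and described as cell cycle arrested, so H3.3 was mapped in other cells, in another cycle state, than the subunits. MTA1 and RBBP4 were precipitated again, 1 library each, in control cells that received GFP-Luciferase/OFP-Luciferase (wild type) and in H3.3 knockdown cells that received OFP-H3.3A/GFP-H3.3B. Poly-adenylated RNA was sequenced from 2 LUC/LUC clones and 3 H3.3KD clones of these kinds, for which the labels add that FLAG/HA-H3.3 fibroblasts were grown with doxycycline. A sequential precipitation took FLAG-H3.3 first and RBBP4 second. Nothing in the labels says that the clones or H3.3 replicates were separate transductions or cultures, so p-values measure the spread between these samples, and each clone carries its own integrations.

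As background, CHD4 is the remodelling ATPase of NuRD, HDAC1 and HDAC2 are its deacetylases, MBD2 and MBD3 are alternative methyl-CpG-binding-domain subunits, the MTA proteins are scaffolds that hold the deacetylases, and RBBP4 is a histone-binding WD40 protein that also serves in other complexes, such as CAF-1 and PRC2. NuRD was first known as a repressor, yet it is commonly found at active promoters and enhancers, where it removes acetyl groups and limits transcription. H3.3 is the histone H3 variant deposited outside DNA replication, by the HIRA complex at active genes and by ATRX and DAXX at repeats. H3K4me3 marks promoters, and H3K27ac and H3K9ac mark active promoters and enhancers.

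The sequences below are promoter entries of genes that start at these regions. Each is the RefSeq promoter entry (GRCm38.p6), 250 bases before to 50 after the annotated start, on the gene's strand. The gene's start lay within 1 kb of a NuRD-rich region. That start was the 5′ end of the deposited gene span, with the strand taken from RefSeq. Whether the start of the RefSeq entry also lies at the region was not checked, here or for the promoter shares below. Regions of all 6 subunits are represented by Nmt1 (N-myristoyltransferase), Mpc2 (a subunit of the mitochondrial pyruvate carrier) and Dusp1 (a phosphatase that ends MAP kinase signalling), a region of 5 by Rbbp4, itself a NuRD gene, and Jun (an AP-1 factor), and a region of 4 by Rps6 (a ribosomal protein). The genes were chosen after their values were seen. Capitals mark the letters of 8 motifs found on either strand: the TATA box (TATAAA), the GC box of SP and KLF factors (GGGCGG), the ETS site (CCGGAAG), the CRE (TGACGTCA), the AP-1 site (TGANTCA), the E-box (CACGTG), the CCAAT box (CCAAT) and the YY1 site (AAGATGGCG). Neighbouring motifs may run together, and a match is only a match of letters.
Nmt1: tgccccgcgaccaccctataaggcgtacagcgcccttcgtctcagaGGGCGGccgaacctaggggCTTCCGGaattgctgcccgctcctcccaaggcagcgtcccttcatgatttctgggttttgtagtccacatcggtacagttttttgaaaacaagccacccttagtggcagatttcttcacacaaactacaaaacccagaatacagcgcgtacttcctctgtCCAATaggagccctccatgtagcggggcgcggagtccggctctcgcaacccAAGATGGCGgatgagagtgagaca
Mpc2: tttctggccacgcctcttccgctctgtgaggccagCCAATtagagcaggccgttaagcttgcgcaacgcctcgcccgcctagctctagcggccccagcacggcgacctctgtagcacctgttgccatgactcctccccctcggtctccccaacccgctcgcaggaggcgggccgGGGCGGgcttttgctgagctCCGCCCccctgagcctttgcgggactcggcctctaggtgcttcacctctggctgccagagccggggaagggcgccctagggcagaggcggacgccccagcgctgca
Dusp1: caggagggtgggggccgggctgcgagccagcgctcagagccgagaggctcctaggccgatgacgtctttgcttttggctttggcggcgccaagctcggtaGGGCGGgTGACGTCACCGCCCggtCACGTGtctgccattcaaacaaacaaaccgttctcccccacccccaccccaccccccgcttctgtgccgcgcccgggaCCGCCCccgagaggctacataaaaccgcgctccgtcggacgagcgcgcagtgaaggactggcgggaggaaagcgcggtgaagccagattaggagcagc
Rbbp4: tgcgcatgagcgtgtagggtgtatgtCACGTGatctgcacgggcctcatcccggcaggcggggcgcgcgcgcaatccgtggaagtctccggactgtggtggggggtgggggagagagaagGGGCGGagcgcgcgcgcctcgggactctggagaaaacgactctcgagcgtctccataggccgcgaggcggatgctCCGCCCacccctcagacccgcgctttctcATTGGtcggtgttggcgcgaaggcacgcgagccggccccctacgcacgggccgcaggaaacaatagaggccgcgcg
Jun: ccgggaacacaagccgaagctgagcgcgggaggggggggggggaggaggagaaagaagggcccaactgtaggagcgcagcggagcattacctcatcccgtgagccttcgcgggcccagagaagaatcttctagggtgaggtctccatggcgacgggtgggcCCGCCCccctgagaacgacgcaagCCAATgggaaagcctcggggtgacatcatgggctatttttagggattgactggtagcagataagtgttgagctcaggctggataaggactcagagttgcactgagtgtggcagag
Rps6: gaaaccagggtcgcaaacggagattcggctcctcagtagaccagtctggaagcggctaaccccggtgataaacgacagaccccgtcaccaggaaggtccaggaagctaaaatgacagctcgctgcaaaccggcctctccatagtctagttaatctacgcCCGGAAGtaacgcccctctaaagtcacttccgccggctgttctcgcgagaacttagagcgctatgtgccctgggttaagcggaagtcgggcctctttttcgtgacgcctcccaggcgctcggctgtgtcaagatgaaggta

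The 6 printed promoters held between 15 (Jun) and 39 (Rbbp4) CpG dinucleotides in 300 bases, against a median of 13 over all 15110 promoters matched. GC box letters were found in 5 of the 6, with Rps6 as the exception, and none held TATA box letters. The 6 do not stand for all, since other genes at NuRD-rich regions had entries outside this range. The Kif2c entry had 2 CpGs, TATA box letters and no GC box letters. The Gapdh entry had 12 CpGs and none of the 8 motifs, and the Anapc13 entry had 42 CpGs. A single promoter entry could be matched for 802 of the 1011 genes with a start at a NuRD-rich region. Their median GC content was 61.0%, with a median of 22 CpGs and an observed-to-expected CpG ratio of 0.809. The 6504 other promoters of expressed genes had medians of 61.3%, 22 and 0.792, close to those of the NuRD-rich ones. Both were above the median GC content of all promoters, 56.0%. GC box letters occurred in 68.7% of NuRD-rich promoters (95% interval 65.4 to 71.9), 67.8% of the other expressed promoters and 46.0% of all promoters. CCAAT letters occurred in 42.4%, 41.0% and 39.7%. ETS letters were in 23.6% (20.7 to 26.7), 20.3% (19.3 to 21.3) and 11.9%, and AP-1 letters in 5.86% (4.34 to 7.72), 4.37% (3.88 to 4.89) and 7.48%. The TATA box was found in 5.74%, 7.04% and 13.8%, the E-box in 10.8%, 10.4% and 8.02%, the CRE in 2.74%, 3.60% and 2.38%, and YY1 letters in 4.11%, 3.81% and 2.05%. The intervals for NuRD-rich and other expressed promoters overlapped for ETS and for AP-1. The 802 were not filtered by expression, unlike the 6504. The 757 of them with expressed genes had GC box letters in 69.1%, ETS letters in 24.0% (21.0 to 27.3) and AP-1 letters in 5.68% (4.14 to 7.58). The ETS and AP-1 intervals overlapped here too.

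The values that chose the regions were as follows and are given as description only. RBBP4 had a peak in 1573 of the 1579 regions (99.6%), HDAC2 in 1524 (96.5%), HDAC1 in 1369 (86.7%), MTA1 in 961 (60.9%), MBD2/3 in 755 (47.8%) and CHD4 in 706 (44.7%). The deacetylases and RBBP4 were thus nearly constant members of the sets, and the remodeller, the MBD subunit and MTA1 were the ones that varied. Among 19 combinations the most frequent were HDAC1, HDAC2, MTA1 and RBBP4 with 425 regions (26.9%), the same 3 partners with MBD2/3 in place of MTA1 with 247 (15.6%), and with CHD4 in its place with 205 (13.0%). Of the 370 regions with 5 subunits, 118 lacked MBD2/3, 116 CHD4, 99 MTA1, 31 HDAC1, 6 HDAC2 and 0 RBBP4. The order follows the size of the peak sets: RBBP4 peaks touched 25717 regions of the table and CHD4 peaks 2017. Read the other way, 35.0% of the regions with a CHD4 peak were NuRD-rich, as were 31.9% for MTA1, 28.7% for MBD2/3, 26.1% for HDAC1, 13.7% for HDAC2 and 6.12% for RBBP4. Peaks filled little of a region for most subunits, with a median covered fraction of 0.0916 for CHD4, 0.0920 for MTA1, 0.117 for MBD2/3, 0.118 for HDAC1, 0.245 for HDAC2 and 0.596 for RBBP4. H3.3 peaks filled 0.819 and 0.942 in the 2 replicates, and 1507 regions (95.4%) had a peak in both.

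The NuRD-rich regions were long. Their median length was 2143 bp, from 243 to 18191 bp, against 904 bp for the 72310 other H3.3 regions and 1902 bp for the 2894 regions with 3 subunits, which lie just outside the rule. The peak coverage table is accompanied by levels in RPKM, which scale reads to region length and library size. The median levels of NuRD-rich and other H3.3 regions were 1.85 and 0.94 for CHD4, 2.55 and 1.02 for HDAC1, 3.31 and 1.16 for HDAC2, 1.85 and 0.928 for MBD2/3, 1.85 and 0.942 for MTA1, and 4.23 and 1.39 for RBBP4. Across the threshold these levels changed by small steps, with RBBP4 at 3.71 in regions of 3 subunits and 4.12 in regions of 4, CHD4 at 1.55 and 1.75, and H3.3 at 5.21 and 5.78 in the first replicate and 4.72 and 5.10 in the second. The rule therefore divides a continuum. A NuRD-rich region held a median of 33 reads in the MBD2/3 library and 83 in the RBBP4 library, and the levels imply library totals from 6621000 (HDAC2) to 24090000 (H3K4me3) reads, rounded.

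**Figure D1:**
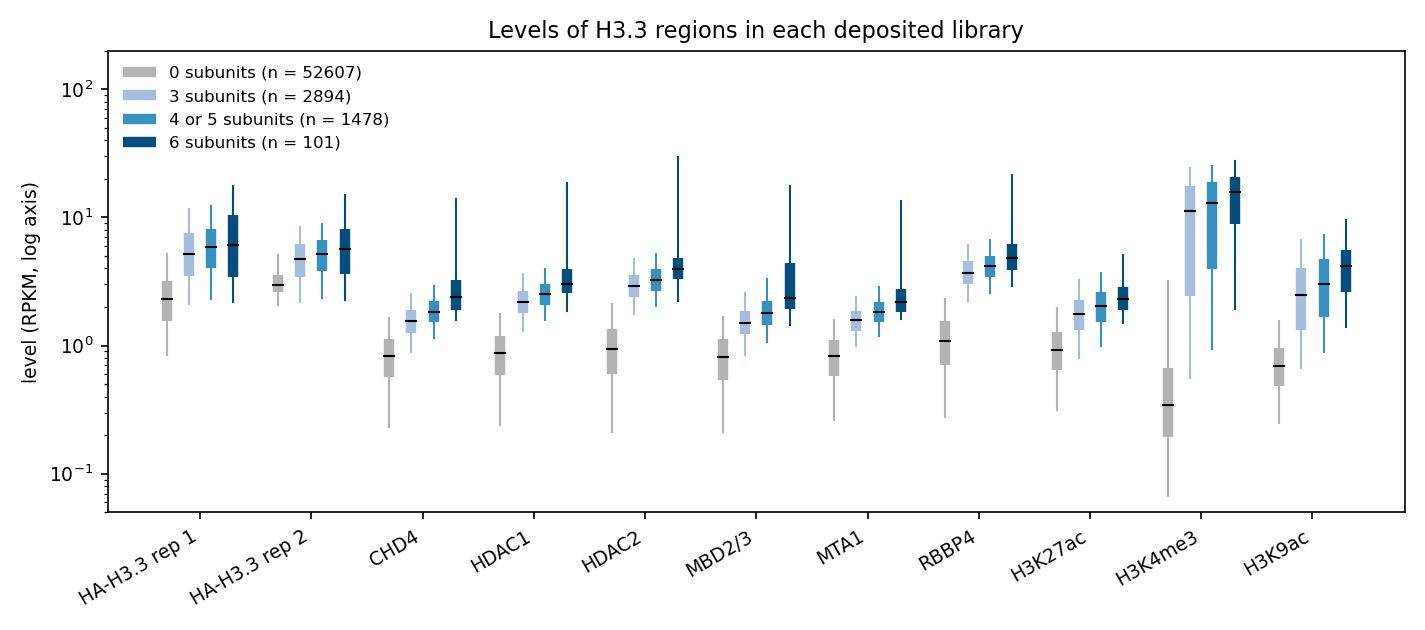
Level in RPKM (log axis) of H3.3 regions in each of the 11 deposited libraries, for regions with 0, 3, 4 or 5, and 6 subunits. Black ticks are medians, thick bars the interquartile range and thin lines the 5th to 95th percentile. The subunit and H3.3 levels chose the groups, and H3K4me3 shows the widest gap, with medians of 0.343 at 0 subunits and 15.7 at 6.

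Nearly all NuRD-rich regions carried H3K4me3, and most carried H3K9ac and H3K27ac, marks that the rule did not use. H3K4me3 peaks overlapped 1482 of the 1579 (93.9%, exact 95% interval 92.6 to 95.0), H3K9ac peaks 1348 (85.4%, 83.5 to 87.1) and H3K27ac peaks 1241 (78.6%, 76.5 to 80.6). The other H3.3 regions had 25.8%, 15.7% and 14.5%. All 3 marks were present in 1143 NuRD-rich regions (72.4%) and in 8.50% of the others, and 51 NuRD-rich regions (3.23%) had none. Regions with 3 subunits lay between, at 88.0% for H3K4me3, 76.6% for H3K9ac and 65.0% for H3K27ac, and their intervals did not overlap those of the NuRD-rich regions. From 4 to 5 to 6 subunits, H3K27ac went from 76.3% to 84.1% to 84.2% and H3K4me3 from 93.1% to 95.9% to 94.1%, with overlapping intervals between 5 and 6 subunits. All these intervals, and those that follow, cover counting over regions only, since each mark is 1 library.

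Levels moved with the peaks. Median H3K4me3 was 13.2 RPKM in NuRD-rich regions, 11.3 with 3 subunits and 0.464 in the other H3.3 regions together. For H3K9ac the medians were 3.07, 2.47 and 0.776, and for H3K27ac 2.05, 1.76 and 1.03. Longer regions can touch a peak more easily, so the shares were also read within 5 classes of length. In regions of up to 1 kb, 89.9% of the 99 NuRD-rich regions and 16.3% of the other H3.3 regions had H3K4me3, 75.8% and 7.94% had H3K9ac, and 54.5% and 5.95% had H3K27ac. H3K27ac depended on length within the NuRD-rich regions and reached 89.0% of the 255 over 4 kb, whereas H3K4me3 stayed between 89.9% and 95.9% in the 5 classes. Against regions with 3 subunits of the same length class, H3K27ac was higher in the NuRD-rich ones in each of the 5 classes, by a margin that ran from 54.5% against 47.6% in the shortest to 84.2% against 69.2% at 2.5 to 4 kb. The H3K27ac intervals overlapped in 3 of the 5 classes, up to 1 kb, 1 to 1.5 kb and over 4 kb. Those of H3K4me3 overlapped up to 1 kb, at 1.5 to 2.5 kb and over 4 kb. For H3K9ac the intervals overlapped only up to 1 kb, at 75.8% against 74.4%.

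**Figure D2:**
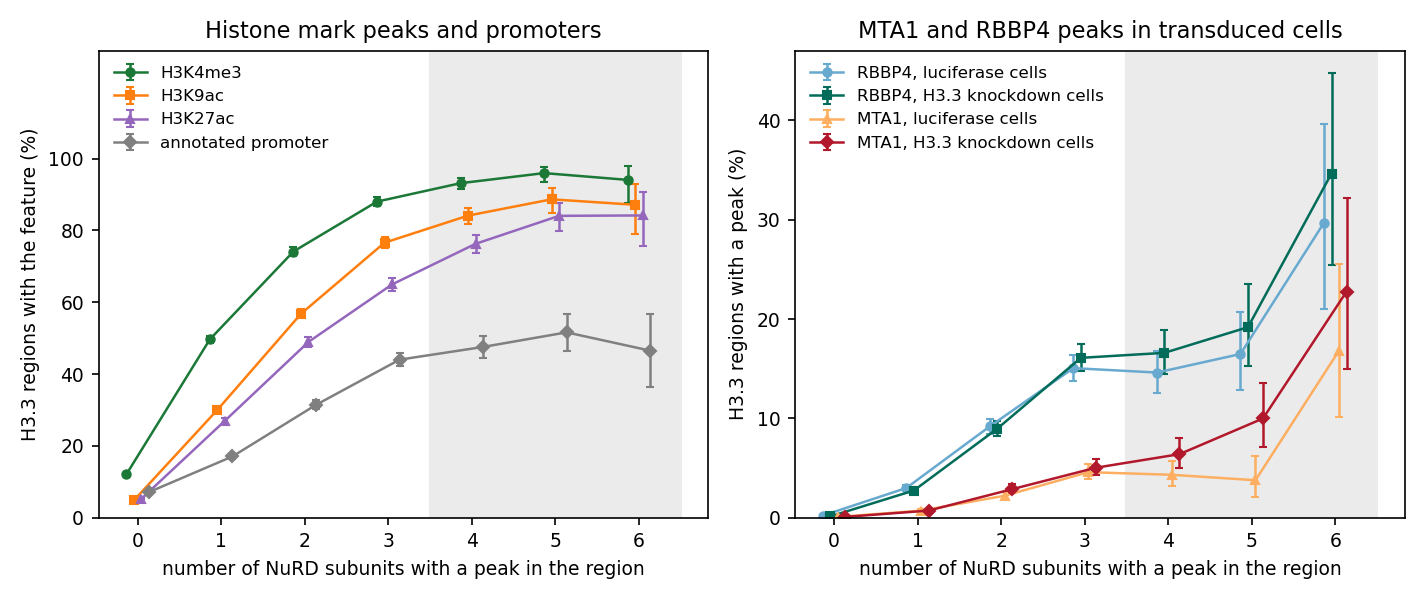
Share of H3.3 regions (%) with a peak of each histone mark or in an annotated promoter (left) and with an MTA1 or RBBP4 peak in transduced cells (right), by the number of subunits with a peak; bars are exact 95% intervals and the grey band marks the NuRD-rich regions. H3K4me3 passes 88.0% at 3 subunits and levels off, while the transduced-cell peaks are highest at 6 subunits. The regions of 6 subunits include 13 that were high in every subunit library. The other 88 had MTA1 peaks in 6.82% and 13.6% and RBBP4 peaks in 19.3% and 26.1% (luciferase and knockdown cells). Their intervals overlapped those at 5 subunits.

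The marks differed only by a few percentage points with most subunits. These splits use the peaks that chose the regions and are description only. With a CHD4 peak 95.6% of regions had H3K4me3 and without one 92.4%. For MBD2/3 the shares were 95.6% and 92.2%. MTA1 went the other way, with H3K4me3 in 92.3% (90.4 to 93.9) of the 961 regions with an MTA1 peak and in 96.3% (94.5 to 97.6) of the 618 without, and H3K9ac in 83.0% (80.5 to 85.4) and 89.0% (86.3 to 91.4). The rule shapes this split, since a region without MTA1 must have CHD4 or MBD2/3, while 425 of those with MTA1 had neither. The MTA1-bearing regions were also longer, at a median of 2317 bp against 1914 bp. Fewer of them lay in annotated promoters, 44.5% against 54.5%. The part of the rule, length and place in the difference was not tested. H3K27ac was alike for MTA1, at 79.2% and 77.7%. For HDAC2, H3K27ac was present in 79.3% (77.2 to 81.3) of 1524 regions with a peak and in 58.2% (44.1 to 71.3) of the 55 without, and for RBBP4 in 78.8% of 1573 and in 2 of the 6 without. The regions without HDAC2 were shorter, at a median of 1588 bp against 2168 bp, as were those without RBBP4, at 660 bp against 2150 bp, and the part of length was not tested.

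About as many NuRD-rich regions lay in promoters as elsewhere. By the deposited annotation, 765 (48.4%, 46.0 to 50.9) touched a promoter, taken as up to 3 kb upstream of a gene or its 5′ untranslated exon, 511 (32.4%) lay in a gene body or downstream, and 303 (19.2%) met no feature. The other H3.3 regions had 12.1%, 57.6% and 30.3%. In promoters, 99.2% of the NuRD-rich regions had H3K4me3, 97.3% H3K9ac and 83.8% H3K27ac. The promoter regions with 3 subunits had 98.9%, 96.4% and 75.7%, with intervals that overlapped for H3K4me3 and H3K9ac and not for H3K27ac, and the other H3.3 promoters had 73.1%, 58.5% and 37.9%. In the 303 regions without a feature the shares were 86.1%, 65.0% and 71.0%, and H3K27ac exceeded H3K9ac there. The median H3K4me3 level fell from 16.9 RPKM in promoters to 9.03 in gene bodies and 3.26 in regions without a feature, while median H3K27ac was 2.20, 1.97 and 1.87 RPKM. The other H3.3 regions without a feature had H3K4me3 in 21.3% and H3K27ac in 11.6%.

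NuRD-rich regions were spread unevenly over chromosomes. Chromosome 11 held 281, 4.38% of its H3.3 regions, followed by chromosome 6 with 150 (3.61%), chromosome 4 with 180 (3.57%) and chromosome 15 with 135 (3.55%). These 4 chromosomes held 746 of the 1579 (47.2%) and 26.3% of all H3.3 regions. Chromosome 14 had 10 (0.417%) and the X chromosome 1 of 1105 (0.0905%). The level of the subunit libraries in regions without any subunit or mark peak moved with this share: the median CHD4 level in such regions ran from 0.473 RPKM on the X chromosome to 0.966 on chromosome 6. Over the 20 chromosomes Pearson's r between the share and that level was 0.945 for CHD4 (Spearman 0.950), 0.971 without the 2 chromosomes farthest from the median level, and between 0.849 and 0.938 for the other 5 subunits. The 4 chromosomes stood apart from the rest, with a CHD4 level of at least 0.932 RPKM (chromosome 15) against at most 0.847 (chromosome 19) elsewhere. The relation is a description, in which all chromosomes share the same libraries. It was 0.836 for H3K27ac, 0.927 for the second H3.3 replicate and -0.344 for the first. No input level was used here, and the part of the chromosome-wide level in where the regions lie was not tested. The features of the regions were nearly the same on the 4 chromosomes and on the rest, with H3K4me3 in 93.6% and 94.1%, H3K9ac in 86.3% and 84.5% and promoters in 47.5% and 49.3%. H3K27ac was present in 84.2% and 73.6%, and in 17.1% and 13.6% of the other H3.3 regions there.

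**Figure D3:**
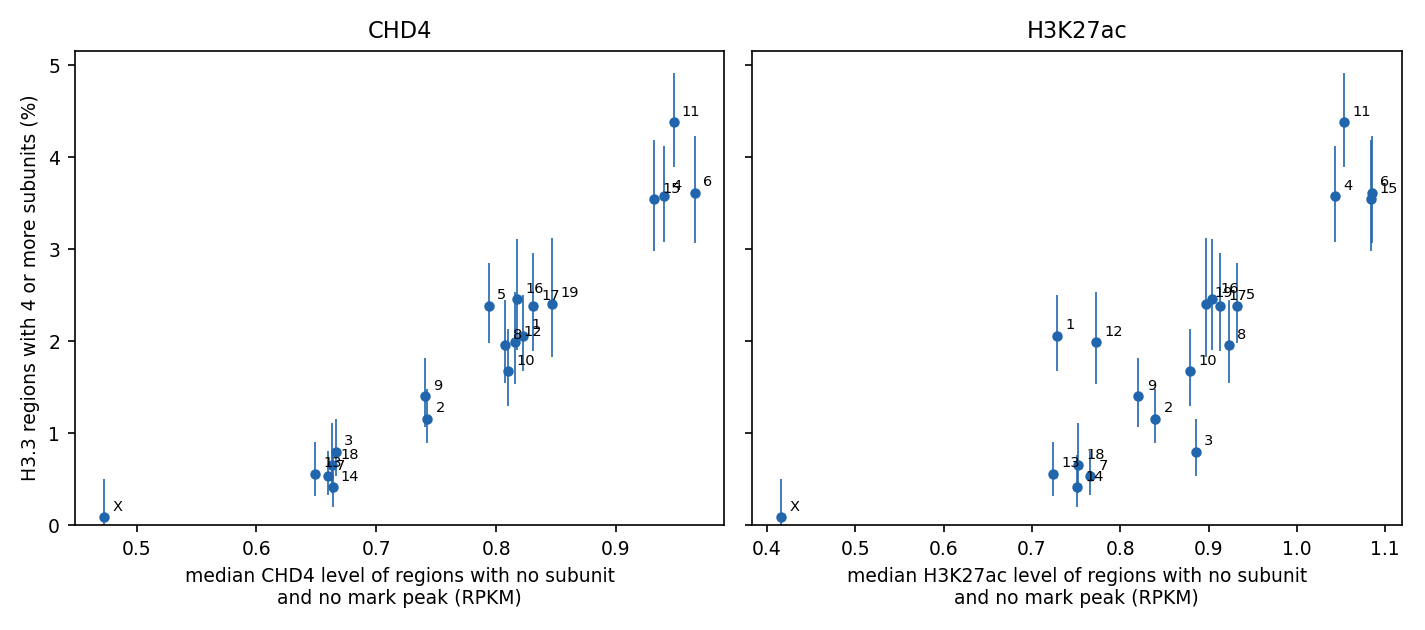
Share of each chromosome's H3.3 regions that are NuRD-rich (%) against the median level (RPKM) of its regions with no subunit and no mark peak, for CHD4 (left) and H3K27ac (right). Each point is 1 of 20 chromosomes, and bars are exact 95% intervals. Chromosomes 11, 6, 4 and 15 lie at the top right and X at the lower left of both.

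A small set of regions was high in every subunit library. In 15 NuRD-rich regions, 13 of them among the 101 with 6 subunits, all 6 subunit levels were 5 RPKM or more. The highest was chr17:39979842-39985867 (mm9) in Rn45s, the 45S ribosomal RNA precursor, with 69.6 RPKM for CHD4, 81.2 for HDAC1, 143.3 for HDAC2, 75.0 for MBD2/3, 60.3 for MTA1 and 84.9 for RBBP4. H3.3 stood at 66.3 and 60.1 there, and H3K27ac at 12.1, H3K4me3 at 45.3 and H3K9ac at 13.1. Among those with H3.3 peaks in both replicates, next came chr11:3052004-3069994, 17991 bp within Sfi1 (a centrosomal protein), where the subunits lay between 18.6 and 23.4 RPKM and H3K27ac was 18.1. Then followed chr6:3151298-3151676, outside genes and 379 bp long, with subunits between 16.7 and 33.1 RPKM. Others were chr11:108872729-108873649, 60633 bp from the nearest gene span (Axin2), with 14.9 to 38.5 RPKM, and chr5:147072417-147073211, in Cdk8 (the Mediator kinase), with 13.3 to 30.4. Among the rest were chr3:5860311-5860922, chr17:36368112-36368634 and chr2:5300128-5300700 in Camk1d. The marks were not high in all of these regions, with H3K27ac at 0.743 RPKM and H3K9ac at 1.31 in chr17:36368112-36368634, under the medians of 2.05 and 3.07.

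These 15 regions did not look like the other NuRD-rich regions. H3K27ac peaks met 4 of the 15, H3K9ac peaks 3, H3K4me3 peaks 11 and annotated promoters 2, whereas RBBP4 peaks of the luciferase cells met all 15 and MTA1 peaks 13. Without them the shares over the remaining 1564 regions were 79.1% for H3K27ac, 86.0% for H3K9ac and 94.1% for H3K4me3. Their weight was largest among the 101 regions with 6 subunits: the other 88 had H3K4me3 in 86, H3K9ac in 86 and H3K27ac in 82. Input levels were not used here, so whether untreated chromatin is also high at these places was not tested.

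In transduced cells, MTA1 and RBBP4 peaks met fewer regions, and met NuRD-rich regions more often than other H3.3 regions. Peaks of the same 2 proteins in cells without a construct helped to choose the regions, with RBBP4 in 99.6% and MTA1 in 60.9%. Of the 72310 other H3.3 regions, 52607 had no subunit peak. The comparison with those regions is therefore description only. Luciferase cells had MTA1 peaks in 79 of the 1579 NuRD-rich regions (5.00%, 3.98 to 6.20) and in 0.542% of the other H3.3 regions, and RBBP4 peaks in 253 (16.0%, 14.2 to 17.9) and 1.96%. H3.3 knockdown cells had MTA1 peaks in 131 (8.30%, 6.98 to 9.77) against 0.613%, and RBBP4 peaks in 290 (18.4%, 16.5 to 20.4) against 1.89%. Regions with 3 subunits were at 4.60% and 5.04% for MTA1 and at 15.1% and 16.1% for RBBP4, and the intervals overlapped those of the NuRD-rich regions for 3 of the 4 libraries. Over all lengths, only the MTA1 share of knockdown cells was apart, at 8.30% against 5.04% (4.28 to 5.91). Within classes of length, its intervals were apart only up to 1 kb, at 17.2% (10.3 to 26.1) against 4.03% (2.03 to 7.10). They overlapped in each longer class, and at 1 to 1.5 kb the order was reversed, at 2.25% against 3.34%. For RBBP4, a difference from the regions with 3 subunits was not detectable in the share over all regions, in either kind of cell. The intervals were apart in regions without a feature, at 8.58% against 3.28% in luciferase and 8.25% against 3.10% in knockdown cells. They were also apart up to 1 kb, at 20.2% against 7.33% and 25.3% against 6.59%. In promoters, gene bodies and each longer class they overlapped. These shares include the 15 regions high in every subunit library, most of which were under 1 kb and 8 of which met no feature. RBBP4 peaks met all 15 in luciferase cells and 14 in knockdown cells, and MTA1 peaks of knockdown cells met 13. Shares by length and place were not computed without these 15, so their part in the separations was not tested.

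The regions bound under both conditions were a minority of those bound under either. For MTA1, 40 regions had a peak in both conditions, 39 in luciferase cells alone and 91 in knockdown cells alone. For RBBP4 the counts were 158, 95 and 132, and 1194 had none. Of the NuRD-rich regions with a luciferase-cell peak, 50.6% (39.1 to 62.1) for MTA1 and 62.5% (56.2 to 68.4) for RBBP4 thus also had a knockdown-cell peak. The peaks of the 2 conditions need not lie on the same bases of a region. In regions with 3 subunits these were 36.8% and 64.0%. Neither protein had fewer NuRD-rich regions with a peak under knockdown, although both whole lists were shorter there. Among peaks with a deposited score of at least 100, the RBBP4 order turned. The shares were 7.79% (6.52 to 9.22) of the regions in luciferase and 6.65% (5.47 to 7.99) in knockdown cells. The RBBP4 intervals of the 2 conditions overlapped over all peaks and also among these. The MTA1 shares fell among these peaks to 1.58% (25 regions, 1.03 to 2.33) and 1.96% (31 regions, 1.34 to 2.78), whose intervals overlapped. The MTA1 list went from 1703 to 904 peaks, of which 99 (5.81%) and 136 (15.0%) lay in NuRD-rich regions, and the RBBP4 list from 3561 to 2919, of which 345 (9.69%) and 377 (12.9%) did. The lists also differed in form, with a median MTA1 peak width of 150 bp in luciferase and 861.5 bp in knockdown cells. With 1 library for each protein and condition there is no replicate check of these differences, and the condition and the library cannot be told apart.

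The peak shares at 6 subunits were lower without the regions high in all 6 subunit libraries, of which 13 had 6 subunits. With them, the 101 regions had MTA1 peaks in 16.8% and 22.8% (luciferase and knockdown cells) and RBBP4 peaks in 29.7% and 34.7%. The 88 regions without them had 6.82% and 13.6% for MTA1 and 19.3% and 26.1% for RBBP4. Over all NuRD-rich regions the shares without the 15 were 4.22% and 7.54% for MTA1 and 15.2% and 17.6% for RBBP4. In annotated promoters, RBBP4 peaks met 19.0% of the 765 NuRD-rich regions in luciferase cells and 24.4% in knockdown cells, and in the 303 regions without a feature 8.58% and 8.25%.

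Sequential precipitation of FLAG-H3.3 and then RBBP4 gave a deposited list of 6 peaks, and 3 of them lay in NuRD-rich regions (50.0%, exact interval 11.8 to 88.2). The peak with the highest fold enrichment of these 3, 10.2 in the authors' list, was chr4:116854887-116855221 (mm9), in the 1364 bp region chr4:116854251-116855614 at the start of Kif2c, a kinesin that takes microtubules apart in mitosis. That region had all 6 subunits, with 2.88 RPKM for CHD4, 5.74 for HDAC1, 7.42 for HDAC2, 4.61 for MBD2/3, 1.79 for MTA1 and 10.7 for RBBP4. The peak chr11:68859169-68859389 had a fold enrichment of 5.56 and lay in chr11:68858881-68860640, a region of 5 subunits within Aurkb, the mitotic kinase of the chromosomal passenger complex. The peak chr11:71855503-71855735 had 4.59 and lay in chr11:71855072-71856629, a region of 4 subunits within Fam64a, a cell cycle gene. All 3 regions also had RBBP4 peaks in luciferase and in knockdown cells and no MTA1 peak in either. Their RBBP4 levels, 10.7, 6.69 and 9.49 RPKM, were above the median of 4.23. With 6 peaks in all, a share in the NuRD-rich regions was not resolved beyond this interval.

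The longest NuRD-rich regions were of another kind. The longest, chr19:5835072-5853262, spans 18191 bp over Neat1, the long non-coding RNA that builds paraspeckles, and Frmd8, with 4 subunits, H3.3 at 8.49 and 7.46 RPKM and peaks of all 3 marks. Its subunit levels ran from 1.24 RPKM for MTA1 to 2.23 for HDAC2, below the medians of the NuRD-rich regions. The Sfi1 region above was second and chr11:3414213-3431941, 17729 bp at the start of Selm (a selenoprotein), followed it, with subunits between 1.00 and 1.40 RPKM. In a long region, peaks of different subunits need not lie on the same bases.

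Genes that start at NuRD-rich regions were mostly expressed. A start was known for 17886 gene symbols, those whose strand a RefSeq promoter table gave, and 1011 of them started within 1 kb of a NuRD-rich region. These 1011 starts belonged to 845 regions (53.5%, against 10.4% of the other H3.3 regions), 162 of which had starts of 2 or more symbols. A further 322 regions were more than 1 kb from any gene span. In the control clones 962 of the 1011 genes (95.2%, 93.6 to 96.4) had a mean of at least 1 FPKM, fragments scaled to gene length and library size, and 49 were below. The share was 94.4% (93.2 to 95.5) for genes at regions of 3 subunits, which overlaps, and 50.8% for all genes of known start. Median expression of the 1011 was 19.9 and 20.2 FPKM in the 2 control clones. It was 16.2 and 15.2 FPKM for genes whose start met a region of 3 subunits, 2.81 and 3.74 for an H3.3 region with 0 subunits, and 0 and 0.00457 for genes with no region. Between 4, 5 and 6 subunits the medians were 19.5 and 20.0, 21.6 and 20.7, and 19.4 and 18.4 FPKM, which is no further order.

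Read from the genes, the share with a NuRD-rich start rose with expression. It was 0.557% of genes below 1 FPKM, 4.97% at 1 to 5, 9.60% at 5 to 20, 14.1% at 20 to 100 and 19.3% (16.1 to 22.7) above 100 FPKM. Of all 9091 expressed genes of known start, 10.6% had one. Among the genes of highest expression were Gnb2l1 (a ribosome-bound scaffold also called RACK1), with 2164 and 2314 FPKM in the control clones, Ppia (cyclophilin A), Rps6, Gapdh (a glycolytic enzyme) and Eef2 (an elongation factor), whose means lay between 1877 and 2239 FPKM. Their regions had 5 subunits at Gnb2l1 and Ppia and 4 at the others, and H3K4me3, H3K27ac and H3K9ac peaks in all 5. Several of these genes have processed pseudogenes, and how reads were divided among copies is not given in the sources used here, so their FPKM is uncertain.

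**Figure D4:**
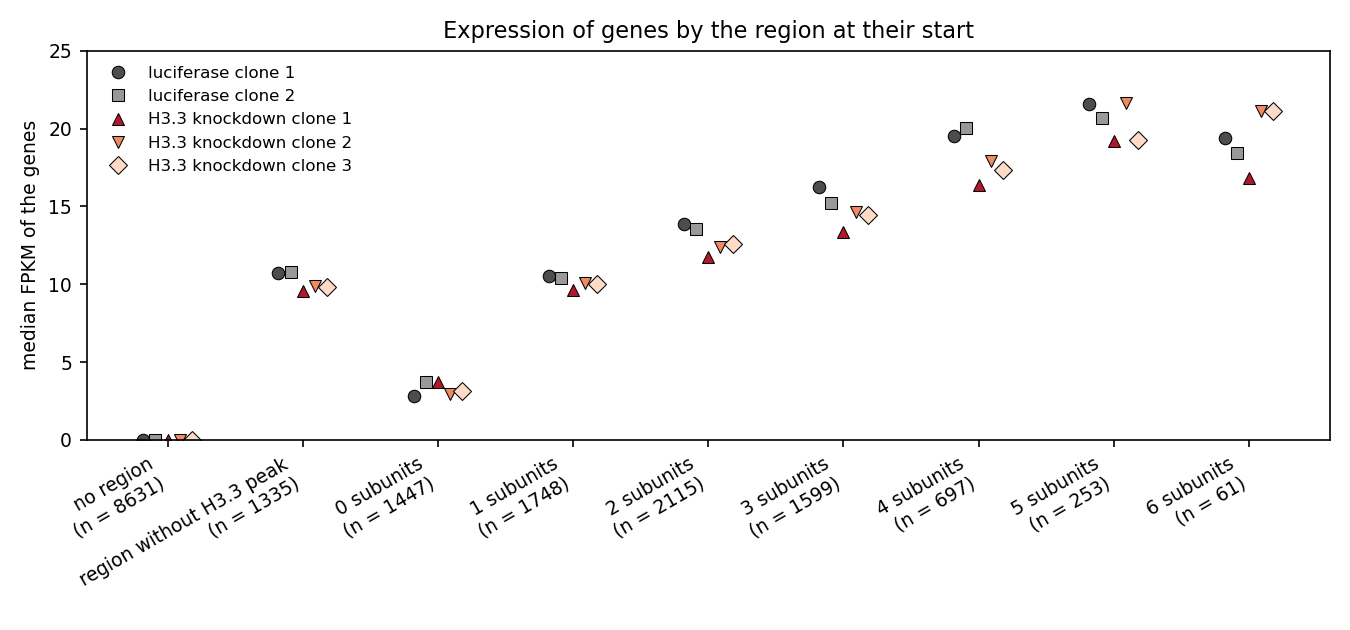
Median expression (FPKM) of genes grouped by the region at their start, in each of the 2 luciferase and 3 H3.3 knockdown clones (1 symbol per clone, n genes under each group). Medians rise from near 0 without a region in all clones. With 4 or more subunits they are 18.4 to 21.6 FPKM in the control clones and 16.4 to 21.6 in the knockdown clones.

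A few NuRD-rich starts were at genes with hardly any RNA. Of the 49 below 1 FPKM, the 4 with the highest subunit levels were 4933430I17Rik, at 0.615 and 1.15 FPKM in the control clones, Gm7008 (0.400 and 0.401), 3110070M22Rik (0.284 and 0.399) and Wdr65 (0 and 0.00714). All 4 had 4 subunits and H3K4me3 peaks, at 12.2 RPKM for 3110070M22Rik up to 33.6 for Wdr65, and 3 of the 4 had H3K27ac and H3K9ac peaks. A neighbouring gene that shares the region was not looked for, and the RNA was poly-adenylated.

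Grouped by function, immediate early genes of the growth factor response had the largest share of NuRD-rich starts. Of 18 with a known start, 7 (38.9%) had one: Jun, Junb and Fosl2 of AP-1, the phosphatases Dusp1 and Dusp6, and Ier3 and Ier5. Jun had 56.3 and 41.9 FPKM in the control clones and Ier3 49.7 and 70.7, and the region at Dusp1, of 7876 bp, had all 6 subunits. Among 11 NuRD subunit genes with a known start, 3 had a NuRD-rich one: Rbbp4 (81.1 and 65.9 FPKM), Mta2 (57.3 and 42.6) and Gatad2a (45.5 and 39.3). Among 11 H3.3 genes and chaperones, 3 did: Hira and its partner Ubn2, and Asf1b, which hands H3 and H4 dimers to chaperones. The shares were 3 of 21 cytosolic ribosomal protein genes (Rps6, Rpl13 and Rpl11), 2 of 14 glycolytic genes (Gapdh and Pfkl), 2 of 15 contractile genes (Zyx and Cnn2), 2 of 16 respiratory chain genes (Ndufa4 and Cox7a2) and 2 of 22 cell cycle genes (Rrm2 and Aurka). They were 1 of 15 matrix genes (Sparc), 1 of 16 Hox genes (Hoxa3), 1 of 9 fibroblast markers (S100a4) and 0 of 10 replication-coupled histone genes. No neural, haematopoietic or epithelial marker had one, of 7, 5 and 9 with a known start. The lists are small, were drawn up with earlier results known, and are set against 10.6% of expressed genes.

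Of the marker lists, that of fibroblasts was by far the highest in the RNA. Its 12 genes summed to 4672 and 4188 FPKM in the control clones and 5419 to 6274 in the knockdown clones. Neural markers summed to at most 1.67 FPKM in any clone, epithelial to at most 6.77 and haematopoietic to between 8.25 and 20.0. Of the targeted genes, H3f3a stood at 128 and 144 FPKM in the control clones and at 71.8, 35.6 and 5.05 in the knockdown clones 1 to 3, and H3f3b at 249 and 237 against 144, 104 and 51.7. Both genes were lower in every knockdown clone, to differing depth, and neither difference passed the adjusted threshold (limma, adjusted p = 0.516 and 0.469).

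H3.3 knockdown changed no gene with a NuRD-rich start at an adjusted p below 0.05. The limma fit on log2(FPKM + 1) tested 11728 genes, of which 968 had such a start, and called 0 of the 968 and 4 of all genes (0.0341%), none of the 4 with a known start. At an unadjusted p below 0.05 there were 90 of the 968 (9.30%), against 9.81% of all genes, with 41 higher in knockdown (3.5% of all genes were) and 49 lower (6.31% of all genes were). All 3 knockdown clones were above both control clones for 103 genes (10.6%, against 11.4% of all genes) and below both for 205 (21.2%, against 21.2% of all genes). These shares lie close to the background. The median log2 difference was -0.12, against -0.10 over all genes tested, with 608 of 968 lower (62.8%, against 59.9%). In the knockdown clones 1 to 3 it was -0.16, -0.08 and -0.08, against -0.13, -0.08 and -0.06 over all genes. Values are on the log2(FPKM + 1) scale, which understates changes of low genes.

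The genes were also divided by RBBP4 in the transduced cells, as a description. The median log2 difference was -0.17 for 113 tested genes whose region had an RBBP4 peak in both conditions, -0.09 for 73 with a peak in luciferase cells alone, -0.09 for 121 with a peak in knockdown cells alone, and -0.12 for 661 with none. For MTA1 the medians were -0.06 (14 genes), -0.09 (23), -0.13 (55) and -0.12 (876). In knockdown clone 1 the group with RBBP4 in both conditions had -0.31, and in the other clones -0.09 and -0.07, so 1 clone set its median apart. None of the groups had a gene past the adjusted threshold.

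The 12 genes of smallest p, 6 in each direction, show the size of the differences that missed the threshold. All 12 had knockdown clones wholly above or wholly below the control clones. Mpc2, whose promoter is printed above, had 13.3 and 13.2 FPKM in the control clones and 36.6, 33.6 and 25.4 in the knockdown clones, a log2 difference of 1.19 (SE 0.22, limma adjusted p = 0.401). Its region, chr1:167389660-167391983, had all 6 subunits and all 3 marks and no peak in transduced cells. Mdh1, the cytosolic malate dehydrogenase, had 30.0 and 32.0 FPKM against 68.0, 106.2 and 119.0, a difference of 1.59 (SE 0.29, limma adjusted p = 0.401). Anapc13, a subunit of the anaphase-promoting complex, had 60.6 and 53.7 against 200.5, 122.7 and 155.5 FPKM. Gamt, which makes creatine, had 20.3 and 14.3 against 63.1, 41.5 and 44.9 FPKM. The matrix gene Sparc had 504 and 657 against 1314, 1046 and 1051 FPKM, and the fibroblast marker S100a4 had 1541 and 1672 against 2471, 3337 and 3646. Anapc13, Gamt, Sparc and S100a4 differed by 1.44, 1.47, 0.97 and 0.95 on the log2 scale, with limma adjusted p-values of 0.401, 0.401, 0.428 and 0.442.

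In the other direction, Ifrd2, a regulator of translation, stood out. It had 49.3 and 28.2 FPKM in the control clones and 4.24, 7.73 and 7.06 in the knockdown clones, a log2 difference of -2.42 (SE 0.35, limma adjusted p = 0.292). Its short region of 935 bp, chr9:107489683-107490617, had 5 subunits, RBBP4 peaks in both transduced conditions and little H3.3, at 0.867 and 1.69 RPKM against medians of 5.87 and 5.18. Tle1, a Groucho corepressor, had 33.3 and 32.5 against 14.4, 18.1 and 18.5 FPKM, with MTA1 and RBBP4 peaks in both conditions at its start. Trib2, a pseudokinase, had 28.2 and 39.5 against 14.6, 17.6 and 14.7 FPKM. Adora2b, an adenosine receptor, had 11.5 and 12.7 against 6.85, 8.24 and 6.23 FPKM, again with both proteins in both conditions. Tmem120a had 62.8 and 43.1 against 26.1, 27.3 and 30.5 FPKM, and Abhd11, a mitochondrial hydrolase, 27.4 and 33.1 against 16.6, 17.6 and 20.1. These 5 differed by -0.92, -1.05, -0.70, -0.88 and -0.71 on the log2 scale, with limma adjusted p-values between 0.417 and 0.447.

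**Figure D5:**
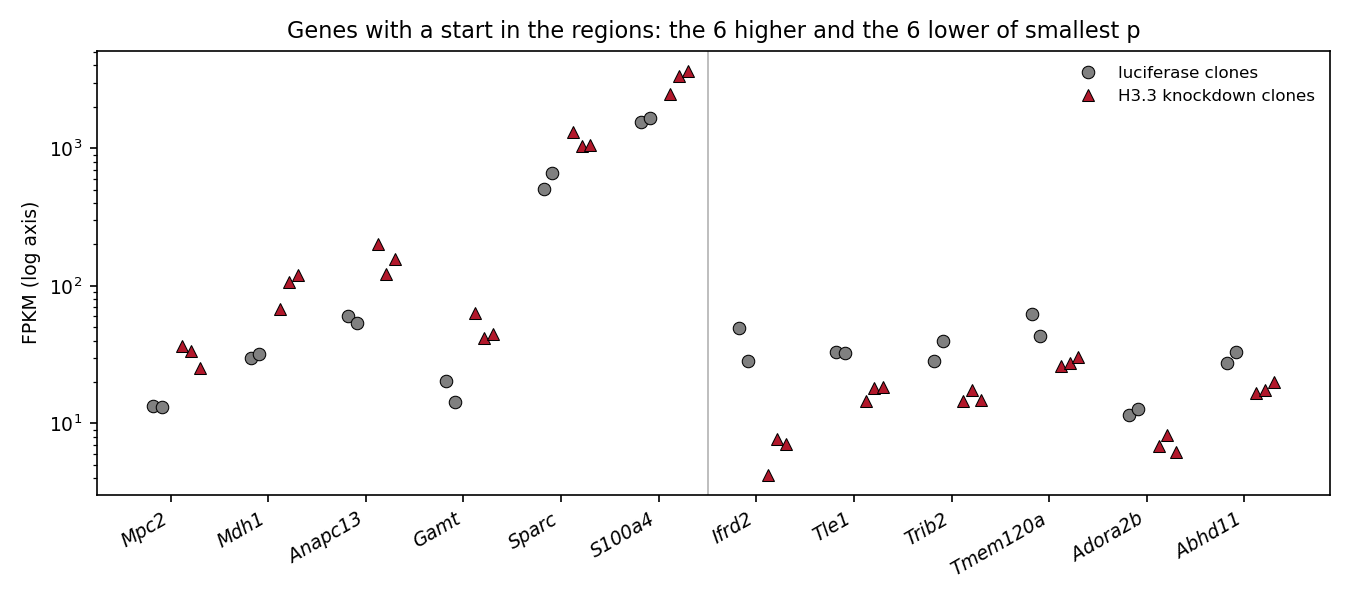
FPKM (log axis) in each of the 2 luciferase clones (grey circles) and 3 H3.3 knockdown clones (red triangles) for the 6 higher and 6 lower genes of smallest p among those with a NuRD-rich start. The clones of the 2 groups do not overlap in any of the 12, which were picked for their p, and none passed the adjusted threshold.

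Among the lists by function, knockdown values overlapped the controls for most. Jun had 40.3, 41.6 and 52.8 FPKM in the knockdown clones, and Dusp1 ran from 12.0 through 30.5 to 74.4 around its control values of 28.1 and 26.5. Ier3 was the immediate early gene with separate groups, at 18.0, 28.8 and 41.7 FPKM against 49.7 and 70.7, a difference of -1.06 (SE 0.39, limma adjusted p = 0.493). The NuRD genes Rbbp4 (55.9, 61.2 and 65.7 FPKM) and Gatad2a (22.0, 28.3 and 36.4) lay under their control values and Mta2 (44.1, 48.1 and 44.3) between them, and none passed (limma adjusted p between 0.520 and 0.830). Hoxa3 was higher in each knockdown clone, at 19.9, 13.5 and 16.8 FPKM against 9.25 and 8.32 (limma adjusted p = 0.442). Among genes of division, Aurka had 13.7, 39.2 and 22.1 FPKM against 55.5 and 43.0, Rrm2 14.6, 47.2 and 42.4 against 78.3 and 42.4, and Asf1b 10.8, 30.6 and 37.1 against 60.1 and 34.8. Kif2c had 14.0, 36.4 and 27.2 FPKM against 38.8 and 26.7, and Aurkb 15.7, 48.9 and 44.6 against 77.3 and 53.5. Clone 1 was lowest in all 5. The 27 cell cycle genes of the list summed to 563 FPKM in that clone, 1477 and 1239 in the other knockdown clones and 2248 and 1403 in the control clones, and the part of this in the values of these genes was not tested.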

How the data were processed

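The authors deposited a region table with the fraction of each region covered by peaks of each library and counts of annotated features per region, and a level table in RPKM. Bowtie, bedtools, MACS2, TopHat, Cufflinks, Cuffdiff and the mouse build mm9 are named in the submitters' processing notes, without role or version. The sequential list was called with MACS 2.1.1.20160309, per the file headers, and gives a pileup signal, fold enrichment (a ratio to control), -log10 p and -log10 q per peak. The other deposited peak lists give a score per peak, used as the authors' own value. RNA was deposited as FPKM per clone, with the RNA depth unknown. Input libraries were not used here.

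Regions were joined to levels by position, and a peak was counted with an overlap of at least 1 base. The levels, RPKM per the file headers, were turned back from log2(RPKM + 1). They gave whole reads in all libraries (100% of the values under 100 reads lay within 0.05 of a whole number). Shares have exact (Clopper-Pearson) 95% intervals. Gene starts were the 5′ ends of the deposited gene spans, with strands from a RefSeq promoter table, and 18215 of 24457 deposited entries had one. log2(FPKM + 1) was computed from the deposited FPKM for genes with a mean of at least 1 and tested with limma 3.58.1 (trend, two-sided, Benjamini-Hochberg over all genes) in R 4.3.3, tested on simulated data. Python 3.11.15 with pandas 2.3.3, numpy 2.4.6, scipy 1.17.1 and matplotlib 3.10.9 did the rest.

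The members, gene lists and cell type markers were chosen with earlier results of these data known. Regions were named by the lowest of the 6 subunit levels (the first 10 with 6 subunits and a peak in both H3.3 replicates), by a sequential peak, as the 3 longest, or outside genes. Genes were named as the 6 higher and 6 lower of smallest p, the 6 of highest expression (of which 1 is not reported here), the first 2 of each list, each NuRD gene, and 4 of low expression. The first 10 regions held no known gene start, so the 6 printed promoters were chosen otherwise. Fosl2, Junb, Ier5, Dusp1 and Dusp6 were named after their values were seen. Alternatives covered the rule, the overlap, the peak score, the start window, the FPKM filter, the pseudocount, quantile normalization, the limma trend and leaving out clones.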

Additional observations from a re-analysis of the deposited data

How the results depend on the processing

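Of 87 alternatives over 13 results, 56 left the result in place and 31 moved it. The sign of the median log2 difference held under all alternatives run. The order of the RBBP4 conditions turned at a higher peak score, with intervals that overlapped in both settings. Requiring peaks over at least 0.5 of the region left 4 members, with H3K4me3 in 100%, H3K27ac in 50.0%, H3K9ac in 50.0%, MTA1 in 75.0% (luciferase) and 75.0% (knockdown), RBBP4 in 75.0% and 100%, and 1 gene start (26.3 FPKM, log2 difference -0.68). Requiring 5 subunits left 471 members, with H3K4me3 in 95.5%, H3K27ac in 84.1%, H3K9ac in 88.3%, MTA1 in 6.58% and 12.7%, RBBP4 in 19.3% and 22.5%, and a median of 20.4 FPKM. Peaks with a score of at least 100 met 91.5% for H3K4me3, 55.2% for H3K27ac, 78.2% for H3K9ac, 1.58% and 1.96% for MTA1, and 7.79% and 6.65% for RBBP4. An overlap of 0.5 of the region or of the peak gave 82.8% for H3K9ac. A gene start within 1 kb in place of the annotated class gave 53.5%. Median FPKM was 20.1 over all genes at members, 21.8 with a control mean of at least 1 and 20.35 with the start inside the region. Quantile normalization moved the median log2 difference to -0.0215, against -0.0065 over all genes. Leaving out each clone in turn gave medians of -0.13 to -0.08 and 0 genes called. With clone numbers 1 and 2 as a replicate block the median was -0.11 and 0 genes were called, but same-numbered clones did not deviate together (correlations -0.25 and -0.10), so the numbers do not pair the clones. Shares without the 15 regions high in all 6 subunit libraries were chosen after seeing the data. Depth limits single regions, where a median of 33 to 83 reads in a subunit library leaves a counting error of 17.4% to 11.0%.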

Other observations

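The letters of the YY1 site were found in 9 of the 51 promoters matched at regions of all 6 subunits (17.6%, exact 95% interval 8.40 to 30.9). The shares were 5.58% (2.82 to 9.77) at 5 subunits, 2.35% at 4 and 3.81% of the other expressed promoters. The intervals for 6 and 5 subunits overlapped. YY1 is a zinc finger factor of ribosomal and mitochondrial gene promoters. The 9 genes were Nmt1, Plod3 (a lysyl hydroxylase), Maml1 (a Notch coactivator), Stk40, 0610009B22Rik, and the pairs Cdca8 with 9930104L06Rik and Atpaf2 with Gid4, which share a region, so 7 of 46 regions hold them. The motif was 1 of 8 searched, was singled out after its values were seen, and has no test. The same promoters had CCAAT letters in 56.9% and ETS letters in 11.8%, with intervals of 42.2 to 70.7 and 4.44 to 23.9.

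The 142 regions with 4 or more subunits but no H3.3 peak resembled the NuRD-rich regions in part. They had H3K4me3 in 83.1% (75.9 to 88.9), H3K9ac in 75.4% (67.4 to 82.2) and H3K27ac in 53.5% (45.0 to 61.9), and 58.5% lay in annotated promoters. RBBP4 peaks met 19.0% of them in luciferase and 21.8% in knockdown cells.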
